A study of Rattus norvegicus with 30 samples.

Results

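The spinal cord of injured rats was compared late against early, at 12 weeks against 1 week after a thoracic spinal cord injury (SCI). The comparison uses 10 of the 30 libraries of the series, the 5 titled as injured at 12 weeks and the 5 titled as injured at 1 week. The libraries were chosen by their titles and not by any measured value. The 5 injured rats of 3 weeks and the 5 of 6 weeks were placed between the ends, and the 5 sham-operated rats of 1 week and the 5 of 12 weeks showed the same passage of time without an injury. All were adult female Long Evans Crl:LE rats, over 10 weeks of age, and the labels name no transgene or drug in any group. Each library came from 1 rat, selected within its group on the quality and quantity of its RNA.

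Gray matter of the neck was sampled, laminae IV to VII, left and right, at the third cervical vertebra, at a distance above the thoracic injury. These laminae hold interneurons that relay input from the motor cortex to the motor neurons of the ventral horn. As background, corticospinal axons of the hindlimb that are severed by a thoracic lesion can grow side branches into the cervical gray matter, and such branches form and are later pruned over the weeks that follow an injury. The series title names this tissue as the target region of that sprouting.

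The files give each gene as an Ensembl identifier without a symbol, and 0 of 32545 identifiers could be matched to a name. What the genes encode, the pathways they belong to and the cell types they mark are therefore not stated, no sequence could be assigned to them, and the labelled tissue was not checked against markers. Levels are in CPM, the count of a gene relative to the TMM-scaled size of its library.

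Depth did not separate the ends. The SCI 1 week libraries held 12.3 to 18.4 M counts and the SCI 12 weeks libraries 8.13 to 33.5 M, and the means differed by 2.32 M (exact two-sided permutation test over 252 splits, p = 0.714, adjusted p = 1 over 3 tests). The difference had the opposite sign, -1.53 M, without SCI 12 weeks rat 3. The 10 most abundant genes took 11% ± 0.683 (SD, n = 5) of the counts at 1 week and 10.3% ± 1.09 at 12 weeks (exact permutation p = 0.27, adjusted p = 0.81). The SCI 6 weeks libraries were the shallowest group, at 6.46 to 12.1 M counts. The median SD between rats of a group, on the log2 scale over all genes tested, was 0.155 at 1 week, 0.194 at 3 weeks, 0.17 at 6 weeks and 0.182 at 12 weeks in injured rats.

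At 12 weeks after injury 4 genes were higher and 8 were lower than at 1 week. These 12 are 0.0811% of the 14801 genes tested (quasi-likelihood test of edgeR, p adjusted by Benjamini-Hochberg, threshold 0.05), with 0.027% of genes called higher and 0.0541% called lower. The changes were small, with a median size of 1.37-fold and a range of 1.22-fold to 2.265-fold. Of the 12 genes, 3 reached 1.5-fold and 1 reached 2-fold, where 486 and 106 of the 14801 genes tested did so. The median size over all genes tested was 1.07-fold. In a piece of tissue, fewer cells of a type and less RNA per cell cannot be told apart.

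In 10 of the 12 genes the ranges of the 5 rats at each end did not overlap. Over all genes tested the ranges were apart for 318, or 2.15%, of which 172 (1.16%) were higher and 146 (0.986%) lower at 12 weeks. Genes called by a small p between these same rats are favoured to separate, so the 10 of 12 is a description.

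The gene with the smallest p was ENSRNOG00000023338, which decreased. Its level was 311.3, 260.1, 316.6, 308.5 and 261.5 CPM in the 5 rats of 1 week and 238.6, 196.4, 175.6, 228.0 and 223.6 CPM in the 5 rats of 12 weeks. Every rat of 12 weeks lay below every rat of 1 week, and at 1 week rats 2 and 5 sat below the other 3. The log2 fold change was -0.458 with a standard error of 0.074, a 1.37-fold decrease (edgeR, adjusted p = 0.00637).

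ENSRNOG00000016043, the more abundant of the named genes that fell, stood at 1132, 1160, 1310, 1286 and 1217 CPM at 1 week. At 12 weeks it stood at 950.0, 920.7, 753.3, 938.8 and 1039 CPM. The ranges did not overlap, and rat 3 was the lowest of the 12 week rats for this gene as it was for ENSRNOG00000023338. The log2 fold change was -0.408 with a standard error of 0.074, a 1.33-fold decrease (edgeR, adjusted p = 0.0146).

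ENSRNOG00000001859 rose the most of the 4 genes that were higher. Its level was 6.588, 8.145, 7.968, 6.978 and 10.08 CPM at 1 week, on 103 to 149 counts per library. At 12 weeks it was 12.53, 15.82, 14.58, 12.05 and 15.19 CPM, on 129 to 499 counts. The lowest rat of 12 weeks was above the highest of 1 week. The log2 fold change was 0.824 with a standard error of 0.145, a 1.77-fold increase (edgeR, adjusted p = 0.0134).

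ENSRNOG00000000975 rose by less and with a tighter spread. It stood at 52.9, 51.17, 46.98, 55.89 and 51.7 CPM at 1 week and at 65.71, 68.56, 64.18, 66.66 and 60.98 CPM at 12 weeks. The gap between the groups was wider than the SD of either. The log2 fold change was 0.332 with a standard error of 0.063, a 1.26-fold increase (edgeR, adjusted p = 0.0229).

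**Figure D1:**
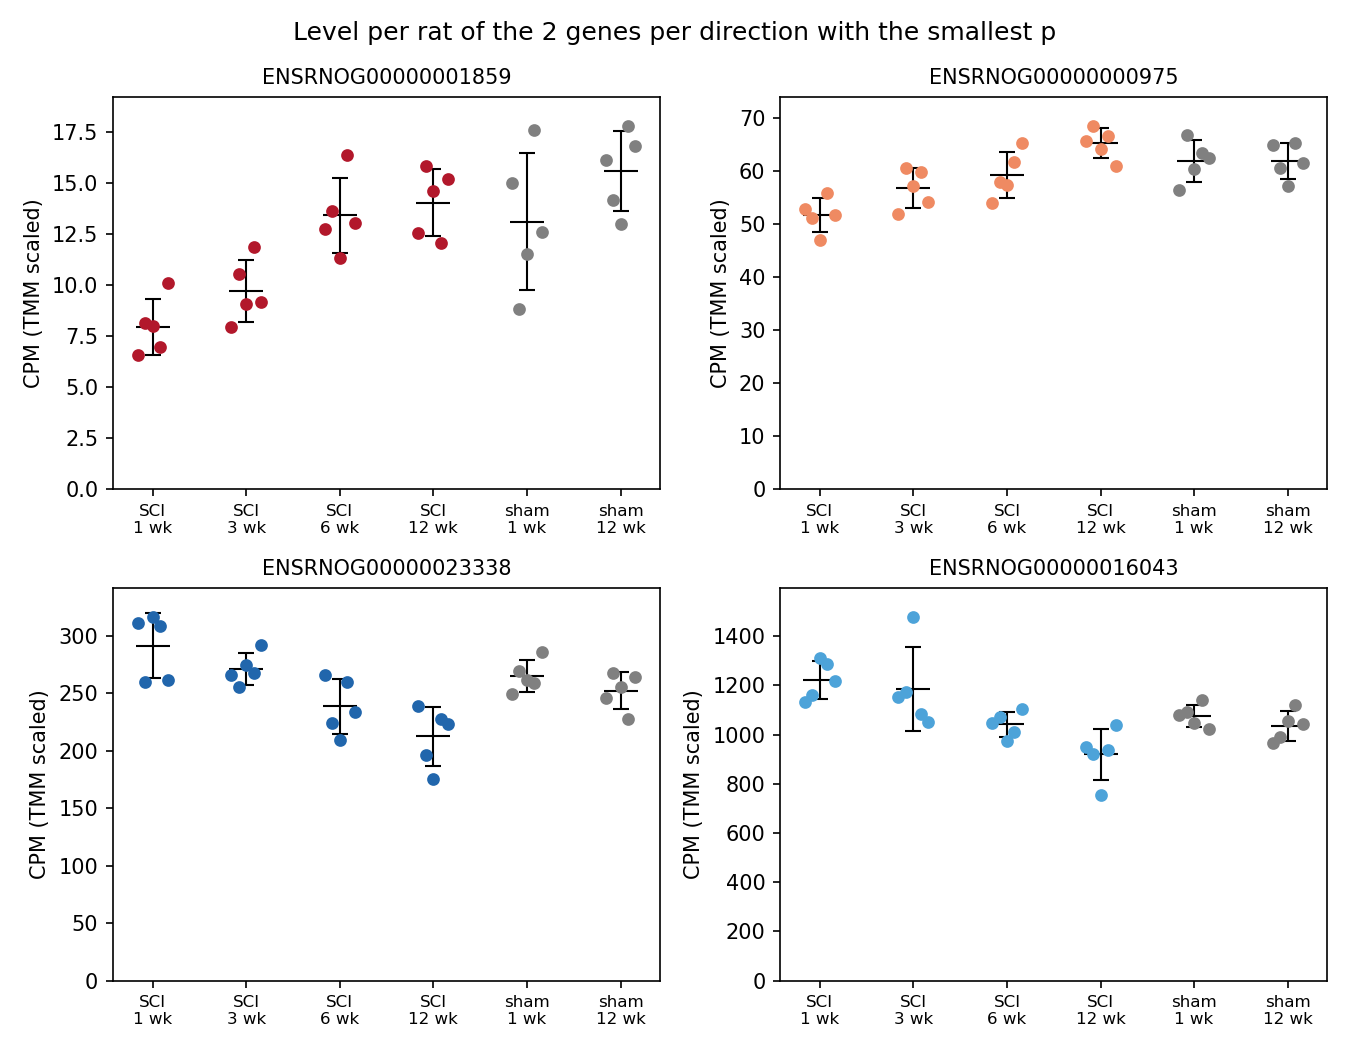
Level of the 4 named genes in every rat, with CPM on the vertical axis from 0 and the 6 groups on the horizontal axis. Points are rats, horizontal bars are group means and error bars are the SD over 5 rats, with sham rats in gray. In each gene the 12 week and 1 week injured rats do not overlap, and the injured groups of 3 and 6 weeks have means between them.

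The other 8 called genes covered a wide range of levels. The remaining 2 that rose went from 46.8 ± 2.36 to 58.2 ± 1.49 CPM (SD, n = 5) and from 21.3 ± 2.39 to 29.3 ± 4.47 CPM, and in the second the highest rat of 1 week, at 24.98 CPM, just passed the lowest of 12 weeks, at 24.93 CPM. The remaining 6 that fell had means of 2.89 to 724 CPM at 1 week and 1.23 to 595 CPM at 12 weeks. The largest fold changes belonged to the 2 least abundant of the 12. One fell from 6.54 ± 1.21 to 3.38 ± 0.913 CPM, and the other from 2.89 ± 0.775 to 1.23 ± 0.443 CPM, where it rested on as few as 4 counts in 1 library. Their log2 fold changes of -0.959 and -1.18 had standard errors of 0.202 and 0.251 (edgeR, adjusted p = 0.0449 for both).

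**Figure D2:**
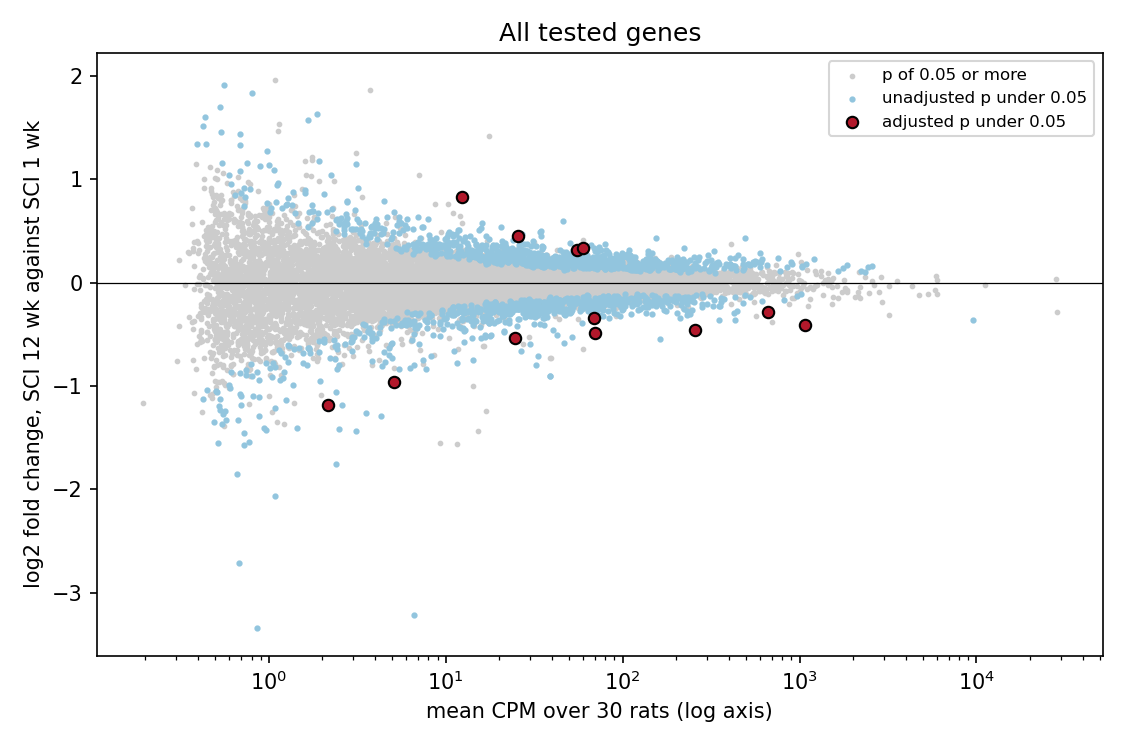
Difference between SCI 12 weeks and SCI 1 week for all 14801 genes, with the mean CPM over 30 rats on a log axis and the log2 fold change on the vertical axis. Red points are the 12 genes past the adjusted threshold, which run from 2.159 to 1080 mean CPM, and light blue points have an unadjusted p under 0.05.

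The count of 12 depended on single rats and on which other libraries were in the fit. What in the smaller fits changed the count was not tested. It was 0 without SCI 1 week rat 3, 3 without rat 4 and 5 without rat 1 of that group, and 4, 7 and 5 without SCI 12 weeks rats 1, 2 and 4. With the 4 injured groups alone in the fit it was 2, and with the 2 compared groups alone it was also 2. ENSRNOG00000016043 and ENSRNOG00000000975 missed the threshold with the 4 injured groups (edgeR, adjusted p = 0.0919 for both) and with the 2 compared groups (edgeR, adjusted p = 0.101 and 0.112). ENSRNOG00000023338 missed it with the 2 compared groups (edgeR, adjusted p = 0.101), and ENSRNOG00000001859 passed in both fits. In those 2 fits the log2 fold changes of the 12 genes were 0.986 to 1.01 times their value here. The same 10 rats enter the difference in them, so this closeness was built in and does not measure stability. Leaving out 1 of the 10 compared rats gave 0.781 to 1.17 times the value. DESeq2 called 65 genes, 32 higher and 33 lower, and limma-voom called 19, of which 7 were higher and 12 lower. Without SCI 1 week rat 3 none of the 4 named genes passed (edgeR, adjusted p = 0.0635, 0.0898, 0.0635 and 0.117 in the order described). ENSRNOG00000016043 and ENSRNOG00000001859 also missed the threshold without SCI 1 week rat 4 (edgeR, adjusted p = 0.0585 and 0.0531), and ENSRNOG00000000975 without SCI 12 weeks rats 1, 2 or 4 (edgeR, adjusted p = 0.0563, 0.0522 and 0.061).

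The 3 and 6 week rats were then placed along the time course. In all 12 the means of the 3 and the 6 week rats lay between those of the 2 ends, and in 11 of 12 the 4 means followed the order of the weeks, against 12.8% of all genes tested. Of the difference reached at 12 weeks, measured on the log2 scale, a median of 22.6% (range 0.849% to 60.4%) was present at 3 weeks and 61.6% (16.1% to 92.3%) at 6 weeks. The choice of genes with distant ends favours means in between: among the 1627 genes with an unadjusted p under 0.05, the 3 week mean lay between the ends in 88% and the 6 week mean in 84.4%, while the week order held in 44.4%.

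**Figure D3:**
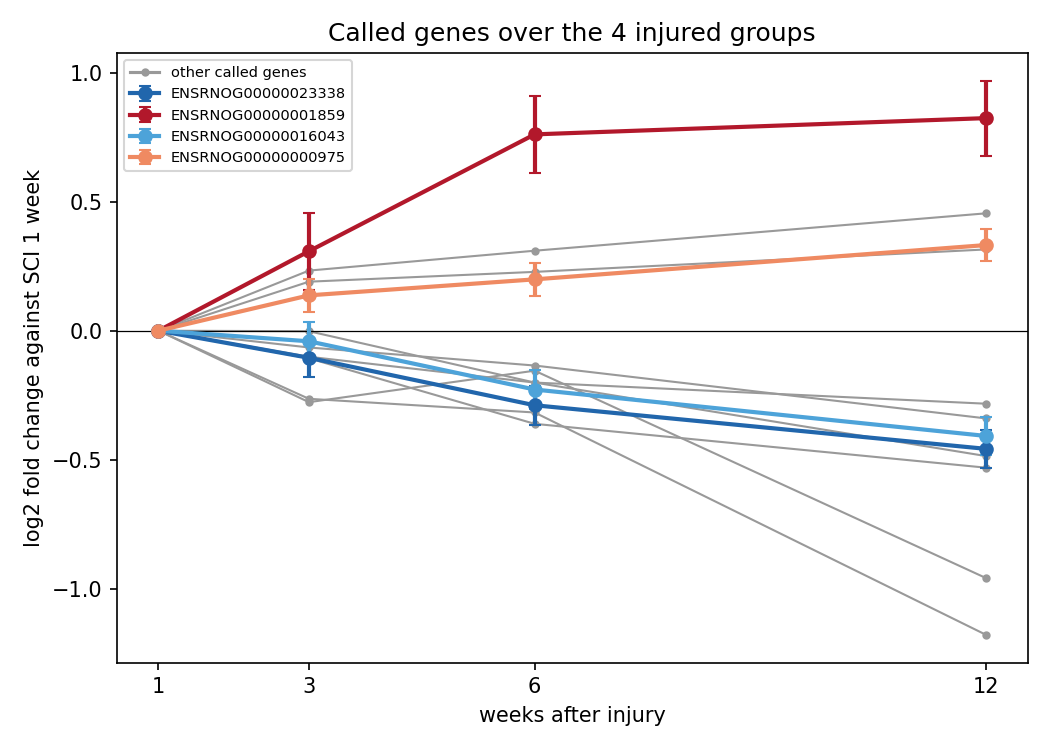
Log2 fold change of the 12 called genes against SCI 1 week, plotted over the weeks after injury. Colored lines are the 4 named genes with the standard error of each difference, and gray lines are the other 8. ENSRNOG00000001859 is at 0.761 by 6 weeks and 0.824 at 12 weeks, while the 2 gray lines that end lowest make most of their descent after 6 weeks.

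The pace differed between genes. ENSRNOG00000001859 stood at 9.73 ± 1.52 CPM at 3 weeks and 13.4 ± 1.85 at 6 weeks, so that 92.3% of its log2 difference was present by 6 weeks. ENSRNOG00000023338 stood at 271 ± 13.7 CPM at 3 weeks and 239 ± 24.0 at 6 weeks, with 22.9% and 63.2% of its difference present. ENSRNOG00000016043 had covered 9.92% at 3 weeks and 55.9% at 6 weeks, at 1187 ± 170.4 and 1042 ± 51.0 CPM. The highest SCI 3 weeks value of that gene came from rat 3, at 1479 CPM, with the others between 1050 and 1172. ENSRNOG00000000975 had covered 41.1% and 60%, at 56.7 ± 3.74 and 59.3 ± 4.33 CPM. The 2 least abundant genes had covered 28.9% and 22.4% at 3 weeks and 16.1% and 26.9% at 6 weeks. Differences in pace between genes were not tested.

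No gene passed the adjusted threshold between 1 week and 3 weeks or between 1 week and 6 weeks (edgeR, smallest adjusted p = 0.68 and 0.0854, with 683 and 1061 genes at an unadjusted p under 0.05). The smallest of these belonged to ENSRNOG00000001859 at 6 weeks, with a log2 fold change of 0.761 and a standard error of 0.150. These comparisons use the same 1 week rats as the comparison of 12 weeks with 1 week. From 6 to 12 weeks there was no call (edgeR, lowest adjusted p = 0.963, with 706 genes at an unadjusted p under 0.05), and between 3 and 12 weeks the smallest adjusted p was 0.0749, with 738 such genes.

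The 6 week and 3 week rats share no library with the ends, so their difference gives the direction of the called genes in other animals. In 11 of the 12 genes it had the sign of the difference between 12 weeks and 1 week, where 52.2% of all genes tested and 60.4% of the 1627 with an unadjusted p under 0.05 between the ends did so. Of the 12 genes, 5 had an unadjusted p under 0.05 between 6 and 3 weeks, against 5% of all genes tested and 4.61% of the 1627, and none passed after adjustment (edgeR, adjusted p from 0.939 to 0.997). The 3 and 6 week rats do share in the estimate of the spread by which the 12 were called. Between the ends the median standard error was 0.0835 in the called genes and 0.1135 over all genes tested. The called genes were also more abundant, with a median of 57.33 CPM against 20.2 over all genes tested. In the more abundant parts of the tested genes, divided into 4 by mean CPM, the median standard errors were 0.0903 and 0.0701. A lower spread at the same abundance was therefore not shown. A low standard error, from abundance or from spread, favours small p values here too, so this share is not independent of the calls. The log2 difference was 0.454 for ENSRNOG00000001859 (95% interval 0.151 to 0.757), -0.188 for ENSRNOG00000016043 (-0.338 to -0.038) and -0.184 for ENSRNOG00000023338 (-0.336 to -0.0326), intervals that leave out 0. The ranges of the 6 and 3 week rats were apart in 1 of the 12 genes, against 0.655% of all genes tested. For ENSRNOG00000000975 it was 0.063, with a 95% interval of -0.069 to 0.194. The 12 genes were measured in the same rats, and these shares were not tested.

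Whether any gene differed among the 4 injured groups was asked in a joint test, which 5 genes passed, 0.0338% of those tested (edgeR quasi-likelihood F-test). They include 4 of the 12 genes called between the ends, or 80% of the one list and 33.3% of the other. The joint test contains the comparison of 12 weeks with 1 week, in the same rats and the same fit. An overlap of the lists is therefore built in. ENSRNOG00000023338, ENSRNOG00000001859 and ENSRNOG00000016043 are among the 4 (edgeR, adjusted p = 0.024, 0.024 and 0.0284), whereas ENSRNOG00000000975 had an adjusted p of 0.125. The count of 5 was 0 without SCI 1 week rats 1, 3 or 4, SCI 6 weeks rat 2 or SCI 12 weeks rat 3. It was 2 without SCI 3 weeks rat 2, SCI 6 weeks rat 3 or sham 1 week rat 4, 3 without SCI 3 weeks rats 3, 4 or 5 or SCI 12 weeks rat 4, and 9 without SCI 12 weeks rat 2.

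**Figure D4:**
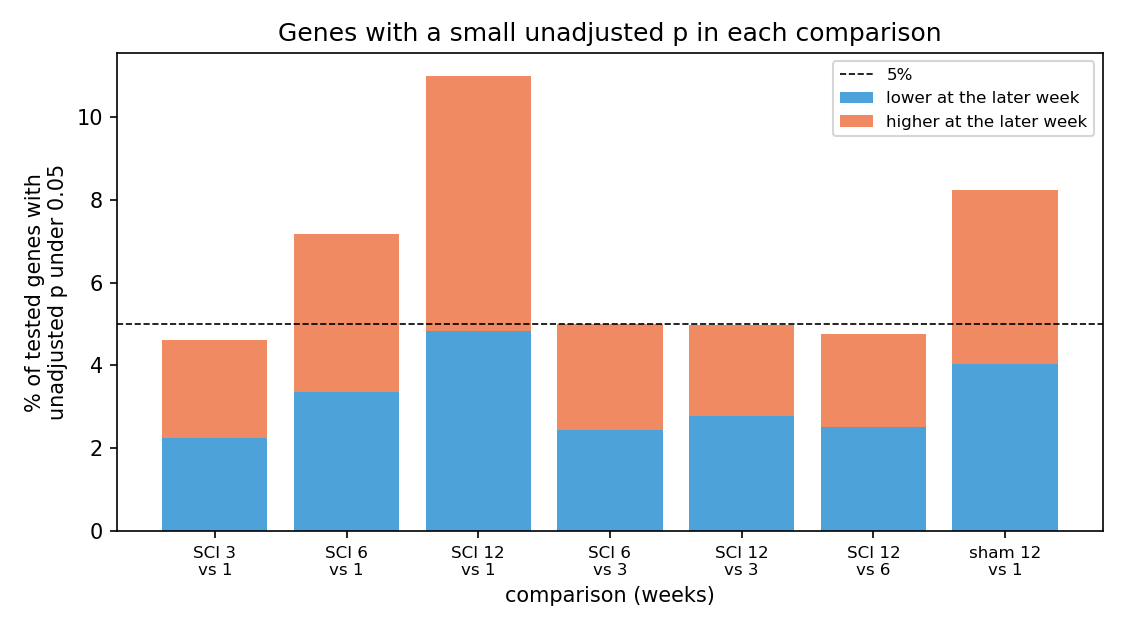
Share of the 14801 tested genes with an unadjusted p under 0.05 in each comparison of 2 injured groups and in sham rats, split by direction, with a dashed line at 5%. SCI 12 weeks against SCI 1 week has the tallest bar at 11%, sham 12 weeks against sham 1 week follows at 8.24%, and the 3 comparisons among 3, 6 and 12 weeks lie at 4.77% to 5%.

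Among pairs of injured groups, the share of genes with an unadjusted p under 0.05 was 11% between 12 weeks and 1 week, 912 genes higher and 715 lower. It was 4.61% for 3 weeks against 1 week, 7.17% for 6 weeks against 1 week, 5% for 6 against 3 weeks, 4.99% for 12 against 3 weeks and 4.77% for 12 against 6 weeks. The median absolute log2 difference over all genes was 0.103 between the ends and 0.0819 to 0.0947 in the other 5 pairs, at similar median standard errors of 0.113 to 0.118. The differences between these shares were not tested. Between 12 weeks and 1 week, a 2-fold difference lay outside the 95% interval of 89.9% of genes, and one of 1.5-fold outside that of 75%.

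Rats taken at 12 weeks were also older at dissection than rats taken at 1 week, and the sham groups carry the same interval without an injury. In 10 of the 12 called genes the sham log2 difference was less than 50% of the injured one, against 31.9% of all genes tested and 70.1% of the 1627 with an unadjusted p under 0.05 in injured rats. Choosing genes for a large injured difference favours this count. None passed between the sham groups (edgeR, adjusted p from 0.428 to 0.999). For ENSRNOG00000000975 the sham levels were 61.9 ± 3.89 CPM (SD, n = 5) at 1 week and 61.9 ± 3.33 at 12 weeks, a log2 difference of 0.001 with a 95% interval of -0.127 to 0.128. ENSRNOG00000023338 went from 265 ± 13.6 to 252 ± 16.0 CPM in sham rats, a log2 difference of -0.071 with an interval of -0.221 to 0.0797. The sham difference of ENSRNOG00000016043 was -0.057 (interval -0.207 to 0.0926), from 1076 ± 44.7 to 1035 ± 59.7 CPM, and that of ENSRNOG00000001859 was 0.241 (interval -0.0401 to 0.523), from 13.1 ± 3.35 to 15.6 ± 1.96 CPM.

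The 2 least abundant called genes were the exceptions. They went from 5.65 ± 0.621 to 3.84 ± 1.17 CPM and from 2.55 ± 0.574 to 1.52 ± 0.266 CPM between the sham groups, which is 59.4% and 63.8% of their log2 difference in injured rats. Their unadjusted p in sham rats was 0.00752 and 0.00452 (edgeR, adjusted p = 0.447 and 0.428). These 2 were the only called genes with an unadjusted p under 0.05 there, against 8.24% of all genes tested. The sham ranges were apart in 1 of the 12 called genes, the first of these 2, against 2.17% of all genes tested.

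**Figure D5:**
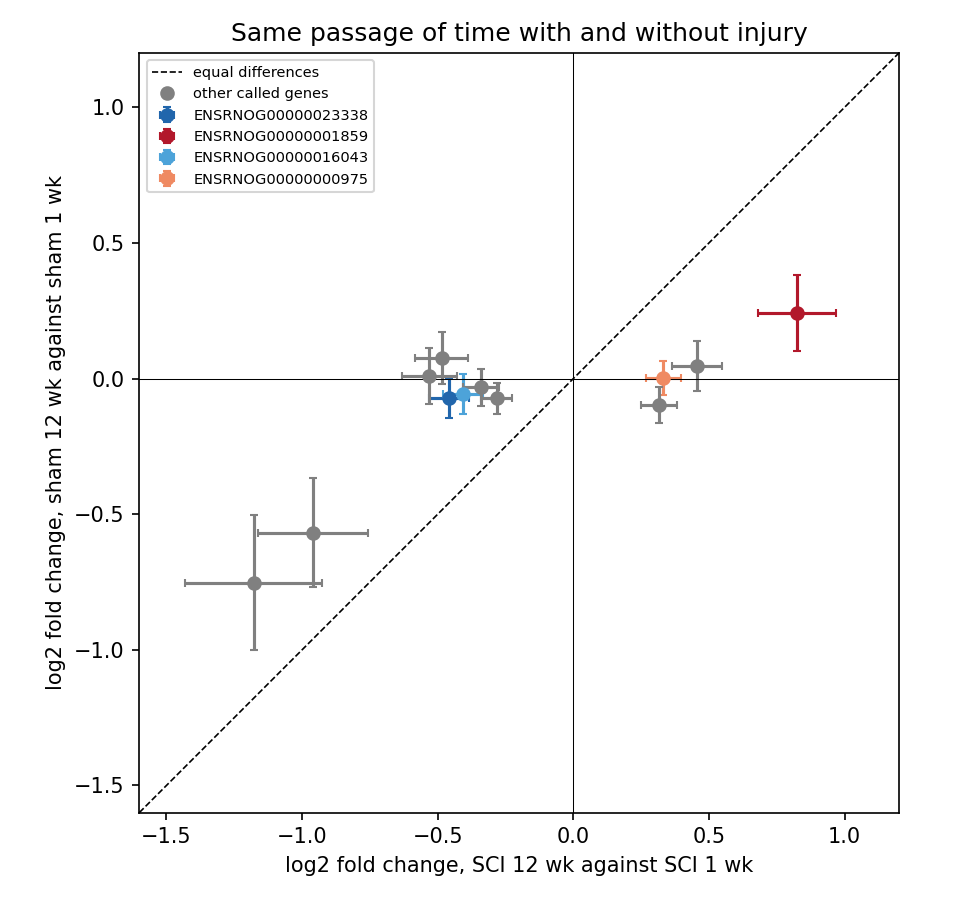
Log2 difference between 12 weeks and 1 week in injured rats (horizontal) and in sham rats (vertical) for the 12 called genes, with bars for the standard error and a dashed line where both are equal. The 4 named genes are colored. The 2 gray points at the lower left are the least abundant genes, with sham differences of -0.569 and -0.752, and ENSRNOG00000001859 has the highest sham difference at 0.241.

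The difference itself was tested as an interaction, the change over time in injured rats minus that in sham rats. No gene passed (edgeR, smallest adjusted p = 0.0548), with 1240 genes, 8.38% of those tested, at an unadjusted p under 0.05. DESeq2 called 24 genes and limma-voom 2. The count became 1 without SCI 1 week rat 4, sham 1 week rat 1 or sham 1 week rat 5, and 2 without SCI 3 weeks rats 1 or 5, SCI 12 weeks rat 5 or sham 12 weeks rat 4. For the 12 called genes the adjusted p ran from 0.2 to 0.807, so none was shown to change differently in injured and sham rats. Unadjusted, 10 of the 12 had a p under 0.05, against 38.4% of the 1627, and their choice on the injured rats favours this. The interaction was -0.387 for ENSRNOG00000023338 (95% interval -0.600 to -0.174, edgeR adjusted p = 0.214), -0.351 for ENSRNOG00000016043 (-0.563 to -0.140, adjusted p = 0.258), 0.583 for ENSRNOG00000001859 (0.177 to 0.990, adjusted p = 0.363) and 0.332 for ENSRNOG00000000975 (0.151 to 0.513, adjusted p = 0.214).

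Beside the sham levels, the 2 ends of the injured course lay mostly on opposite sides. In 10 of the 12 genes both sham means fell between the SCI 1 week and SCI 12 weeks means, against 16.9% of all genes tested and 46% of the 1627 with an unadjusted p under 0.05. Choosing genes with distant ends favours sham means in between, so this is a description. Differences between injured and sham rats of the same week were not tested here. ENSRNOG00000023338 and ENSRNOG00000016043 were above both sham means at 1 week and below both at 12 weeks. ENSRNOG00000000975 was 51.7 ± 3.22 CPM in SCI 1 week and 65.2 ± 2.85 in SCI 12 weeks, around sham means of 61.9, whereas ENSRNOG00000001859 at 14.0 ± 1.66 CPM in SCI 12 weeks lay between its sham means. In 9 of the 12 the gap to the sham rats of the same week was larger at 1 week than at 12 weeks, against 57.1% of all genes tested and 78.3% of the 1627.

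The labels of sham 1 week rat 1 conflict, since its title and description name a control and its surgery and source fields an injury, and it was kept as sham. It enters no mean of the injured groups. Its levels were 249.5 CPM for ENSRNOG00000023338, 1080 for ENSRNOG00000016043, 15.0 for ENSRNOG00000001859 and 56.34 for ENSRNOG00000000975, each outside the range of the 5 SCI 1 week rats. These genes were chosen for SCI 1 week levels distant from those of SCI 12 weeks, which favours other rats falling outside that range. The levels therefore do not decide between the labels. Counted as injured at 1 week, it took the number of called genes from 12 to 4, and ENSRNOG00000001859 to a log2 fold change of 0.609 (edgeR, adjusted p = 0.194). Left out, it gave 9 called genes, with 1 in the interaction.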

How the data were processed

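Stranded total RNA libraries of 30 rats were sequenced after removal of ribosomal RNA, per the labels' protocols. The authors deposited raw counts per gene, 1 table per rat, without normalization. Per the submitters' processing notes reads were handled with STAR 2.5.3a, featureCounts, Subread 1.2.6, Trimmomatic and bcl2fastq 2.19.05, on genome build Rnor_6.0. For the annotation release, the strand setting and multiply mapped reads nothing is stated in the sources used here, so overlapping genes and near-identical copies are uncertain.

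Groups and replicate numbers came from the titles. Over 20 pairs within the 2 compared groups, the chi-square of counts per degree of freedom was 7.44 to 45.9, beyond sampling noise. The counts were fitted with edgeR 4.0.16 in R 4.3.3 (TMM, filterByExpr on the groups, robust quasi-likelihood) in 1 model of the 6 groups, which kept 14801 of 32545 genes. Adjusted p values are Benjamini-Hochberg over all genes tested, with a threshold of 0.05. Standard errors are the log2 fold change divided by the square root of F. Library measures used exact permutation tests. The fit was also run on simulated counts. Their dispersions were estimated from these data, and the planted changes were larger than most of those reported here. The simulation therefore does not show how well changes of the reported size are found. Alternatives used DESeq2 1.42.0 and limma 3.58.1 among others.

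The comparison and the gene lists were chosen with earlier results of these data known. The reference table of 47357 genes shares no identifier with the files, so the 37 gene and marker lists were not run. The text then names 2 called identifiers that rose and 2 that fell, those of lowest p. Genes singled out by low abundance were chosen after their values were seen.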

Additional observations from a re-analysis of the deposited data

Results flagged for a closer look

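Each of 48 sets of 5 rats was searched for a library far from the other 4 (library totals, share of the 10 most abundant genes, genes with at least 10 counts, distance from the group and the 4 named genes). Such a library appeared in 2 sets, and chance, at about 1 set in 20, would give 2.4. SCI 3 weeks rat 1 had a root mean square difference of 0.39 on the log2 scale from the mean of the other rats of its group, over all genes tested, against 0.286 to 0.313 for the others. This library was also the shallowest of its group, at 8.1 M counts against 11.3 to 16.2 M. The part that depth plays in its distance was not tested. SCI 3 weeks rat 3 had 1479 CPM of ENSRNOG00000016043, against 1050 to 1172 in the others. Neither library belongs to the 2 ends, and without them the count between 12 weeks and 1 week was 17 and 9.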

How the results depend on the processing

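Over 43 alternatives the 12 genes kept their direction, with log2 fold changes 0.738 to 1.17 times those reported. Most of these alternatives keep the 10 compared rats as they are and could hardly change a direction. Leaving out 1 of the 20 other rats gave 0.987 to 1.01 times the value, and 1 of the 10 compared rats 0.781 to 1.17 times. For genes whose ranges do not overlap, leaving out a rat cannot turn the direction either. Counts are given for 12 weeks against 1 week (12), the joint test (5) and the interaction (0), in that order. They were 24, 8 and 3 at a threshold of 0.1, 65, 30 and 24 with DESeq2, and 19, 7 and 2 with limma-voom. With the injured groups alone they were 2 and 1, with the 2 compared groups alone the first was 2, and with the conflicting sham rat counted as injured they were 4, 0 and 0. Without the 4 libraries under 9 M counts, an alternative chosen after seeing the data, they were 7, 0 and 2. The interaction gave 1 gene without robust estimation. Leaving out each of the 30 rats gave 0 to 17, 0 to 9 and 0 to 2 genes, and of the 10 compared rats a difference in library totals of -1.53 to 4.81 M. The 20 rats outside the ends moved the first count to between 9 and 17. DESeq2 size factors, the filters on low counts and library total as a covariate changed no count by over 1.5 times. With the replicate block the counts were 12, 3 and 0, and 10 of the 12 genes were called. The deviations of same-numbered rats of the 2 ends were weakly correlated, from -0.0638 to 0.146, the highest in rat 4. The number was not used to pair them, though such correlations cannot exclude a factor shared by number. The cause of these changes was not tested.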

Other observations

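The share of genes with an unadjusted p under 0.05 between SCI 12 weeks and SCI 1 week rose with abundance. When the tested genes were divided into 4 equal parts by mean CPM over all rats, it was 6.4%, 9.62%, 12.6% and 15.4% from the least to the most abundant. The median standard error of the log2 fold change fell along the same order, from 0.314 to 0.135, 0.0903 and 0.0701. The called genes numbered 2, 1, 3 and 6 in these parts. In the most abundant part 340 genes with such a p were higher at 12 weeks and 228 lower, whereas in the least abundant 111 were higher and 126 lower.

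Across the 14801 genes, not independent of each other, the log2 difference between SCI 12 weeks and SCI 1 week correlated weakly with that between the sham groups (Pearson r = 0.0916, Spearman rho = 0.0731) and with that between SCI 6 weeks and SCI 3 weeks (r = 0.0751, rho = 0.08). No library enters both differences of either pair.

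Just inside the adjusted threshold lay 3 genes at an adjusted p of 0.0449, with log2 fold changes of -0.959, 0.315 and -1.18. Just outside lay 2 at 0.0502 and 0.0503, with log2 fold changes of -0.311 and 0.252 (edgeR).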
